A study of Schizosaccharomyces pombe with 30 samples.

Results

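The core spliceosome genes of fission yeast (Schizosaccharomyces pombe) named cwf, prp, Sm and Lsm were followed on splicing arrays in 10 groups of mutant cultures. Members were the genes whose RefSeq symbol is cwf, prp, lsm, smb, smd, sme, smf or smg followed by a number, without 9 listed genes, prp16 among them. The rule gave 51 genes, of which 50 of the 5084 genes in the table had features: 7 Sm genes, 8 Lsm genes, 13 prp genes and 22 cwf genes. The other one, sme2, encodes a meiotic non-coding RNA and is no spliceosome gene. The 50 genes held 50 of 5069 exon features, 74 of 4836 intron features and 67 of 4651 exon-exon junction features.

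Pre-mRNA splicing is carried out by the spliceosome, which assembles on each intron from small nuclear ribonucleoproteins (snRNPs). Sm proteins form the ring around the U1, U2, U4 and U5 snRNAs, and a ring of Lsm proteins holds the end of U6, while lsm1 belongs to the related cytoplasmic ring that acts in mRNA decay. The prp and cwf members encode subunits of the U2, U5 and U4/U6 particles, the Prp19 complex (cwf stands for complexed with Cdc5), and step factors. Many of these genes contain introns themselves, so the arrays measured both their expression and the splicing of their own transcripts.

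Each array compared the total RNA of 1 mutant sample, labelled with Cy5, with wild-type RNA from the same temperature regime, labelled with Cy3, and 3 arrays made up each of the 10 groups. The label pht1∆ stands for loss of the gene for the histone variant H2A.Z, and swr1∆ for loss of the ATPase of the complex that puts H2A.Z into chromatin. In cells labelled usp107DAmP (a U1 snRNP-associated protein) and prp16DAmP (an ATPase that remodels the spliceosome for the second step), the labels mark a DAmP allele, a type of allele that lowers a gene's mRNA by disrupting its 3′ end. The groups grown at 30 °C were pht1∆, swr1∆, usp107DAmP and pht1∆ usp107DAmP. Those moved to 16 °C for 9 h were pht1∆, prp16DAmP and pht1∆ prp16DAmP, and those moved to 37 °C for 2 h were swr1∆, prp16DAmP and swr1∆ prp16DAmP. Cultures were harvested in mid-log phase in rich medium (YES5). The labels do not say whether the 3 arrays of a group came from separate cultures, so p-values measure the spread between these arrays, which may be technical.

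All values are log ratios of mutant over wild type, read here as log2, with 0 meaning no difference. The transcript level of a gene is the value of its exon feature. The splicing index of an intron is the value of its intron feature minus that of the gene's exon feature, so a higher index means more intron signal per transcript signal. Errors are standard errors from limma over all 30 arrays, n = 3 per group, and a feature was called when its two-sided, Benjamini-Hochberg adjusted p over all features of its kind was under 0.05. Total RNA from a culture does not tell a change in every cell from a change in some cells.

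The exon feature of pht1 averaged -0.65 in pht1∆ at 30 °C and -0.74 at 16 °C, both called, but 0.02 in the group labelled pht1∆ usp107DAmP and -0.03 in that labelled pht1∆ prp16DAmP. The swr1 feature averaged -0.11 in swr1∆ at 30 °C and -0.19 at 37 °C, neither called. The usp107 feature averaged -0.01 and -0.11 in the groups labelled usp107DAmP and pht1∆ usp107DAmP. For prp16 the means were -0.15 and 0.28 at 16 °C and -0.19 and -0.01 at 37 °C in the groups labelled with prp16DAmP, none called. Its lowest means were in groups not labelled for it. These were -0.51 in pht1∆ usp107DAmP, called (adjusted p = 0.0395) with replicate 3 the lowest, and -0.46 in swr1∆ at 37 °C, not called. Genotypes are therefore given as labelled, and the sources used here do not say where these probes lie relative to each allele. On the first arrays of pht1∆ at 30 °C and swr1∆ at 30 °C, 32.8% and 19.3% of intron features carried a value that repeats elsewhere on the array, among them 22 and 13 of the 74 member introns, against 0.165% to 6.25% on the other 28 arrays.

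Of the 74 member introns, 71 could be placed by gene and order on the RefSeq annotation of genome assembly ASM294v3, and the 9 that the splicing results turn on are printed here. The sources used here do not name the build behind the array's probes. Among placed member introns 26.8% began with GTAAGT, the commonest 5′ splice site, against 27.9% of all 4164 placed introns, and their median length was 54 bases against 57. The last 60 bases were searched on the sense strand for 4 branch-site motifs, which can occur together and whose copies can overlap by a base. In those bases 45.9% of all placed introns held CTAAC and 27.3% held the form CTAAT. The forms with G were rarer, since 6.44% held the motif CTGAC and 3.7% the motif CTGAT. At least 1 of the 4 was found in 62 member introns, or 87.3%, against 76.7% of all placed introns. The first pair printed are the member introns called in the most groups. The next 3 had the highest indices in pht1∆ at 16 °C, and the 4 introns of prp3 were all called in usp107DAmP. Capitals mark the first 6 bases, 1 branch motif where any was found, and the last 3 bases.
lsm7 intron 1 (III:1818474-1818527, plus strand): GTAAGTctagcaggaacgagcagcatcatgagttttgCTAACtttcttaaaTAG
cwf19 intron 1 (I:1102291-1102334, minus strand): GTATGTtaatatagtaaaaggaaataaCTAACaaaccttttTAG
lsm6 intron 1 (I:3923886-3923994, minus strand): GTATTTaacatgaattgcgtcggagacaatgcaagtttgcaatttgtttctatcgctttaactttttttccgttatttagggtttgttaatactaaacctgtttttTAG
lsm6 intron 2 (I:3923722-3923771, minus strand): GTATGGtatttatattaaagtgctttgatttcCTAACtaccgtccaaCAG
lsm1 intron 3 (II:1284663-1284739, minus strand): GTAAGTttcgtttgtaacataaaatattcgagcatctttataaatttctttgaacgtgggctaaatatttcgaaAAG
prp3 intron 1 (I:4404168-4404217, plus strand): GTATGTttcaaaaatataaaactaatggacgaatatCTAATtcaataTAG
prp3 intron 2 (I:4404377-4404422, plus strand): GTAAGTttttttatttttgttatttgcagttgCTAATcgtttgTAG
prp3 intron 3 (I:4405083-4405124, plus strand): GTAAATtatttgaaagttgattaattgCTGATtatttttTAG
prp3 intron 4 (I:4405436-4405518, plus strand): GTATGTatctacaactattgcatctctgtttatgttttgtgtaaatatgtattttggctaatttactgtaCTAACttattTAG

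The 5′ sites differed among these introns. The GTAAGT of lsm7 intron 1, lsm1 intron 3 and prp3 intron 2 opens 27.5% of all 5185 annotated introns and the GTATGT of cwf19 intron 1 opens 19.8%. By contrast, GTATTT of lsm6 intron 1, GTATGG of lsm6 intron 2 and GTAAAT of prp3 intron 3 open 0.906%, 1.58% and 1.45%.

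Transcript levels moved in either direction and by small amounts in most groups. Across the 10 groups 40 of the 50 members were called at least once, against 76.7% of all genes, and 79 values were called in all. Their sizes ran from 0.18 to 1.01 on the log2 scale, and 1 passed 2-fold, prp12 in pht1∆ at 30 °C. The 10 members called in no group were sme1, smf1, lsm1, lsm3, lsm8, cwf4, cwf5, cwf16, cwf25 and cwf28. In different groups 6 members were called in both directions, and the share of all genes that were was not counted.

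**Figure D1:**
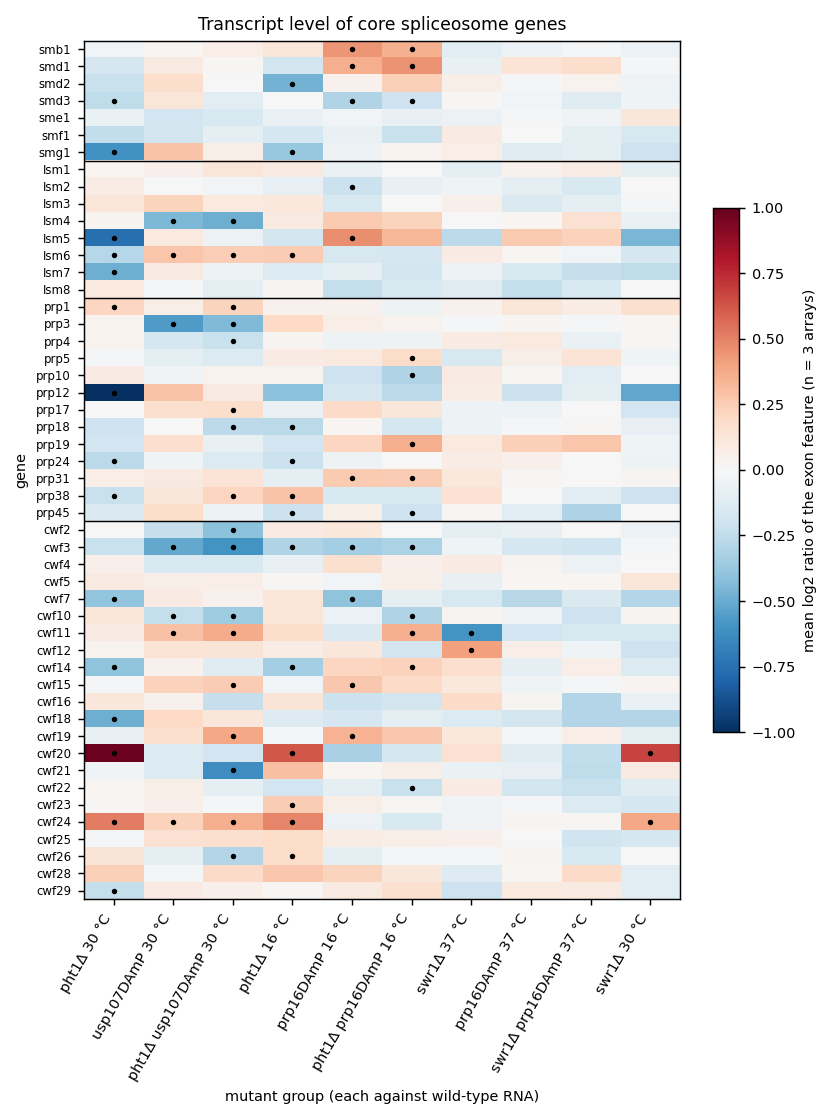
Mean log2 ratio of the exon feature for each of the 50 members (rows, ordered by family) in each of the 10 groups (columns), n = 3 arrays; black dots mark called values. The 3 groups at 37 °C hold 2 dots between them, and the darkest cells are cwf20 at 0.98 and prp12 at -1.01 in pht1∆ at 30 °C.

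In pht1∆ at 30 °C, 3 members rose and 12 fell, 30.0% of the members against 25.7% of all 5069 genes. The median member stood at -0.01 and the median gene at -0.03. Without replicate 1 the count was 10 (3 higher, 7 lower), and without replicate 2 it was 16. The fit of this group's 3 arrays alone called 3 members, and scaling the arrays to equal spread left 9. By family, 2 of 7 Sm genes, 3 of 8 Lsm genes, 3 of 13 prp genes and 4 of 22 cwf genes fell, against 858 lower among all 5069 genes.

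The largest fall was that of prp12, an SF3b subunit of the U2 snRNP, which read -0.69, -1.70 and -0.63. All 3 arrays lay below 0, and replicate 2 was the lowest by a wide margin. The mean was -1.01 ± 0.21 (SE, n = 3, adjusted p = 0.00082), and it was -0.66 without replicate 2. The Lsm gene lsm5 read -0.69, -0.90 and -0.67, a mean of -0.75 ± 0.14 (adjusted p = 0.000414). For smg1, the G subunit of the Sm ring, the arrays read -0.56, -0.86 and -0.38, a mean of -0.60 ± 0.11 (adjusted p = 0.000387). These 3 falls passed the test with any 1 array left out, but in the fit of this group's 3 arrays alone those of prp12 and smg1 did not.

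Among the smaller falls in pht1∆ at 30 °C were the Lsm gene lsm7 at -0.49, cwf18 at -0.49, and cwf14, the relative of budding yeast Bud31, at -0.40. The other falls, between -0.39 and -0.22, were those of cwf7, lsm6, prp24, smd3, cwf29 and prp38. Besides cwf20 and cwf24, prp1, a tri-snRNP gene, rose by 0.22. The call of prp1 was lost without replicate 1, that of lsm6 without replicate 2, and that of prp38 without replicate 1 or replicate 3.

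Both cwf20 and cwf24 rose in pht1∆ at 30 °C, in pht1∆ at 16 °C and in swr1∆ at 30 °C, the 3 groups labelled with a single chromatin mutation at these temperatures. For cwf20 the arrays read 1.15, 1.03 and 0.76 in pht1∆ at 30 °C, 1.01, 0.39 and 0.46 in pht1∆ at 16 °C, and 1.30, 0.44 and 0.29 in swr1∆ at 30 °C. All 9 arrays lay above 0, with means of 0.98 ± 0.14 (1.97-fold), 0.62 ± 0.14 and 0.68 ± 0.14 (adjusted p = 1.27e-05, 0.00205 and 0.00514). Replicate 1 was the highest in each: without it the mean was 0.43 at 16 °C (adjusted p = 0.0912) and 0.37 in swr1∆ at 30 °C (adjusted p = 0.233), while the call in pht1∆ at 30 °C held with any 1 array left out. Neither gene had an intron feature. Same-numbered arrays of pht1∆ and swr1∆ at 30 °C deviated together in transcript level (correlations 0.53 to 0.79), so the calls of these groups may not be independent.

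The RING-finger gene cwf24, whose budding yeast relative Cwc24 acts around the first step, read 0.71, 0.41 and 0.42 in pht1∆ at 30 °C, 0.51, 0.40 and 0.55 in pht1∆ at 16 °C, and 0.27, 0.37 and 0.51 in swr1∆ at 30 °C. The means were 0.51, 0.49 and 0.39, each ± 0.08 (adjusted p = 2.23e-05, 3.89e-05 and 0.00387), and all 3 calls held with any 1 array left out. Both 30 °C calls were lost when each group's arrays were fitted alone. It also rose in pht1∆ usp107DAmP, by 0.36 ± 0.08 (adjusted p = 0.000575), and in usp107DAmP, by 0.23 ± 0.08 (adjusted p = 0.033). The latter call was lost without replicate 1 or replicate 2 (means from 0.21, adjusted p up to 0.191). In the other 5 groups its means lay between -0.15 and 0.03.

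Markers of mating type were also called in these 3 groups. Of 8 genes marking M cells, 4 were lower in pht1∆ at 30 °C (means from -2.87 to 0.19), 6 in pht1∆ at 16 °C (-5.07 to -0.001) and 4 in swr1∆ at 30 °C (-2.66 to 0.15). Of 3 genes marking P cells, 2 were higher in pht1∆ at 30 °C and 1 in swr1∆ at 30 °C. P genes were lower in usp107DAmP (1 of 3) and pht1∆ usp107DAmP (2 of 3), and 1 M gene was lower in prp16DAmP at 16 °C. The part of mating type in the levels of the members was not tested.

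**Figure D2:**
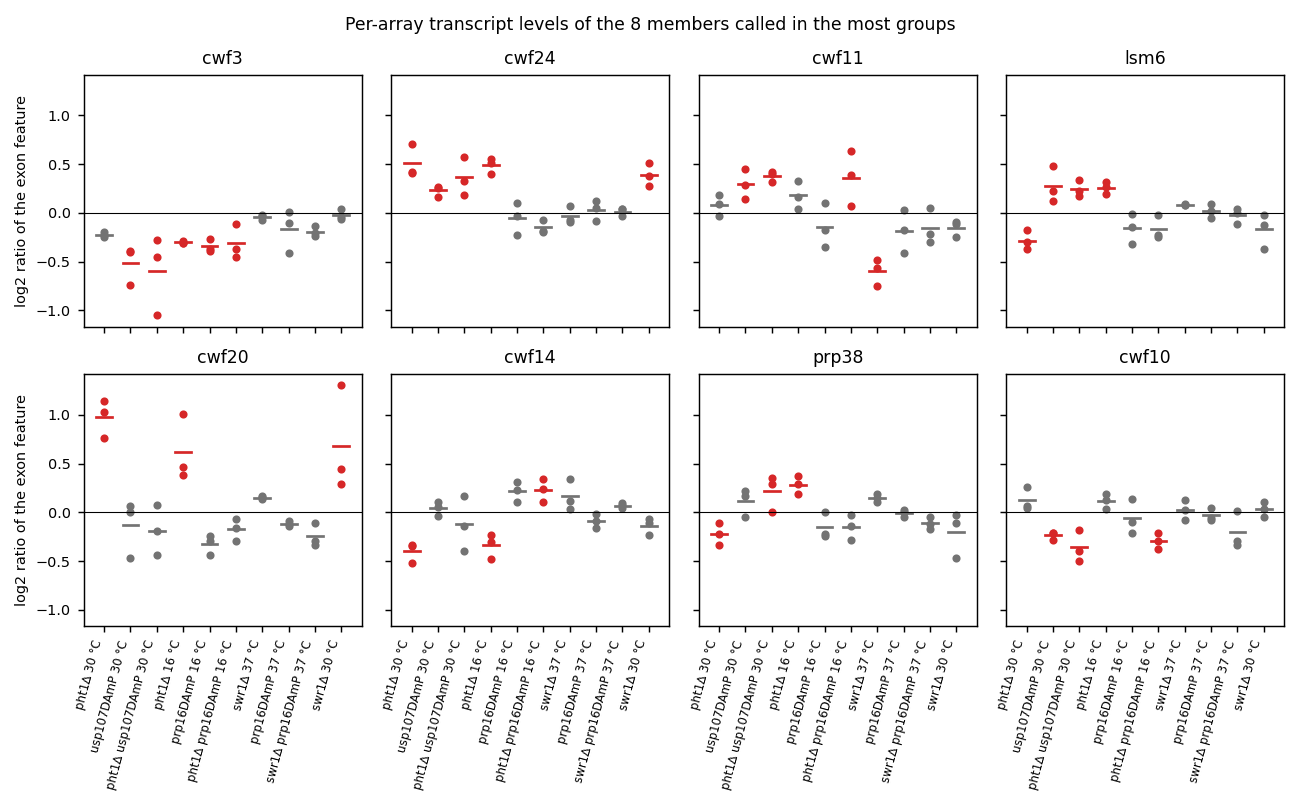
Log2 ratio of the exon feature on each array (points) with the mean of each group (bars) for the 8 members called in the most groups; red marks called groups. The points of cwf20 and cwf24 lie above 0 in pht1∆ at 30 °C and 16 °C and in swr1∆ at 30 °C, and cwf3 has its lowest points in both groups labelled usp107DAmP.

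Transcripts of 6 members were called higher and 7 lower in pht1∆ at 16 °C, 26.0% of the members against 20.3% of all genes. Counts without 1 array were 5 to 7: 5 without replicate 1 or replicate 2 and 7 without replicate 3. The Sm gene smd2 read -0.32, -0.59 and -0.51, a mean of -0.47 ± 0.11 (adjusted p = 0.00234), all 3 arrays below 0, and its call held with any 1 array left out. The other Sm gene that fell was smg1, at -0.38. Its call was lost without any 1 of the 3 arrays (means -0.41 to -0.35, adjusted p up to 0.12). The falls of cwf14 (-0.34), cwf3 (-0.30), prp18 (-0.27), prp24 (-0.22) and prp45 (-0.21) were smaller. Besides cwf20 and cwf24, prp38 (0.28), lsm6 (0.26), cwf23 (0.26) and cwf26 (0.18) rose. The call of cwf14 was lost without replicate 1, that of lsm6 without replicate 1 or 2, that of prp38 without replicate 2 or 3, and that of cwf3 without any 1 array.

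Between the temperatures, 2 members differed in pht1∆ when the difference itself was tested, 4.0% of the members against 7.93% of all genes. The Lsm gene lsm6 read -0.30, -0.37 and -0.18 at 30 °C and 0.26, 0.31 and 0.19 at 16 °C. The arrays of the groups did not overlap, and the difference was 0.54 ± 0.11 (adjusted p = 0.00231). The tri-snRNP gene prp38 read -0.22, -0.11 and -0.34 at 30 °C and 0.19, 0.37 and 0.29 at 16 °C, again without overlap, a difference of 0.51 ± 0.11 (adjusted p = 0.00668). Both calls held with any 1 array left out, and that of prp38 was lost when only the arrays of both groups were fitted.

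Between swr1∆ and pht1∆ at 30 °C limma called no member transcript (0.0% against 2.37% of all genes), and 5 had an unadjusted p under 0.05. Without swr1∆ replicate 1 there were 2, 1 in each direction. In swr1∆ at 30 °C against wild type only cwf20 and cwf24 were called, 4.0% of the members against 5.56% of all genes. Leaving out replicate 3 gave 9 (2 higher, 7 lower), leaving out replicate 1 gave 1, and the fit of its own 3 arrays called none. For prp12 the swr1∆ arrays read -0.51, -1.35 and 0.31, which overlap 0, and the mean of -0.52 had an adjusted p of 0.148.

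In usp107DAmP, 3 members rose and 4 fell, 7 of 50 against 20.5% of all genes. The U4/U6 protein gene prp3 read -0.29, -0.68 and -0.72, a mean of -0.56 ± 0.09 (adjusted p = 0.000238). The gene cwf3, whose relative in budding yeast is the Prp19 complex scaffold Syf1, read -0.39, -0.74 and -0.40, a mean of -0.51 ± 0.10 (adjusted p = 0.001). Both calls held with any 1 array left out. Next, lsm4 read -0.13, -0.91 and -0.31, a mean of -0.45 ± 0.10 (adjusted p = 0.00369), and was lost without replicate 2, at -0.22. The small fall of cwf10, the U5 GTPase, was -0.24, and the rises of cwf11, lsm6 and cwf24 were 0.29, 0.28 and 0.23. The calls of cwf10 and cwf11 were lost without any 1 array, and that of lsm6 without replicate 1 or replicate 2. Without replicate 2 only 2 members were called, without replicate 1 there were 3, and the fit of this group's own 3 arrays called none. Scaling every array to the same spread left 1 higher and 4 lower.

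In pht1∆ usp107DAmP 8 members rose and 9 fell, 34.0% of the members against 42.4% of all genes. The 4 transcripts that fell in usp107DAmP were also called lower here, where 1237 of all 5069 genes were lower. The overlap over all genes was not counted. Same-numbered arrays of these groups deviated together (correlations 0.60 to 0.74), so their calls may not be independent. For cwf3 the arrays read -0.28, -1.05 and -0.46, a mean of -0.60 ± 0.10 (adjusted p = 6.43e-05). Also lower were lsm4 at -0.49 ± 0.10 (adjusted p = 0.000628), prp3 at -0.44 ± 0.09 (adjusted p = 0.000501), the RNA-binding protein gene cwf2 at -0.41 and cwf10 at -0.36. The largest fall was that of cwf21, the relative of the human SR-related matrix protein SRm300, with arrays at -0.52, -1.02 and -0.33 and a mean of -0.62 ± 0.11 (adjusted p = 0.000137). Replicate 2 was the lowest array for cwf3, lsm4, cwf2 and cwf21, and the calls of cwf21, cwf3, lsm4 and cwf10 held with any 1 array left out. Leaving out replicate 1, 2 or 3 gave 11, 10 and 20 calls. Scaling every array to the same spread left 1 higher and 7 lower, and the fit of this group's 3 arrays alone called none.

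Only 1 member passed the test of non-additivity between the pht1∆ and usp107DAmP labels (2.0% of the members against 1.03% of all genes). For cwf20 the arrays read 0.06, -0.46 and 0.001 in usp107DAmP and 0.07, -0.44 and -0.19 in pht1∆ usp107DAmP, both overlapping 0 and both below the pht1∆ arrays given above. Its level in the double group lay 1.03 ± 0.24 below the sum of the 2 single groups (interaction -1.03, adjusted p = 0.0332). The call was lost without any 1 of 5 arrays: pht1∆ replicates 1 and 2, usp107DAmP replicates 1 and 3, and pht1∆ usp107DAmP replicate 2 (-1.20 to -0.90, adjusted p up to 0.105). The pht1 feature in the double group was near 0, as given above.

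In prp16DAmP at 16 °C, 6 members rose and 4 fell, 10 of 50 against 17.3% of all genes. The Sm gene smb1 read 0.38, 0.42 and 0.53, a mean of 0.44 ± 0.07 (adjusted p = 0.000302), and its call held with any 1 array left out. Another Sm gene, smd1, read 0.49, 0.19 and 0.41, a mean of 0.36 ± 0.10 (adjusted p = 0.0136), while smd3 fell, at -0.31, -0.30 and -0.28, a mean of -0.30 ± 0.08 (adjusted p = 0.00854). The Lsm gene lsm5, which fell in pht1∆ at 30 °C, rose here, at 0.45, 0.44 and 0.52, a mean of 0.47 ± 0.14 (adjusted p = 0.0276). These last 3 calls were lost without replicate 1, that of smd1 also without replicate 3 and that of lsm5 also without either other array. Without replicate 1 only 1 member passed, and without replicate 2 or replicate 3 there were 4. The remaining calls were cwf19 (0.35), cwf15 (0.27) and prp31 (0.26) higher, and cwf7 (-0.40), cwf3 (-0.34) and lsm2 (-0.22) lower, and those of cwf7 and cwf3 were lost without any 1 array. With each kind of feature centred on its median on each array, 9 rose and 2 fell.

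The group labelled pht1∆ prp16DAmP at 16 °C had 7 members higher and 6 lower, 26.0% against 23.4% of all genes. Again smd1 (0.69, 0.38 and 0.27, mean 0.45 ± 0.10, adjusted p = 0.00215) and smb1 (0.40, 0.34 and 0.32, mean 0.35 ± 0.07, adjusted p = 0.00126) were higher on all 3 arrays. The ubiquitin ligase gene prp19 read 0.49, 0.28 and 0.32, a mean of 0.37 ± 0.09 (adjusted p = 0.00723). The rises of smd1 and prp19 were lost without replicate 1, at 0.33 and 0.30. The falls were all within -0.31 and -0.21: cwf3, prp10, cwf10, cwf22, smd3 and prp45. Of these, the calls of prp10 and cwf10 were lost without replicate 1, that of prp10 also without replicate 2, and that of cwf3 without replicate 2 or 3. Without replicate 1 there were 2 calls, without replicate 2 there were 4 and without replicate 3 there were 6, and centring each kind of feature gave 8 higher and 2 lower.

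The interaction of the pht1∆ and prp16DAmP labels at 16 °C was called for 1 member transcript, cwf24 (2.0% of the members against 2.56% of all genes). Its arrays read -0.03, -0.23 and 0.10 in prp16DAmP and -0.19, -0.18 and -0.08 in pht1∆ prp16DAmP, below all 3 pht1∆ arrays at 16 °C. The double group lay 0.58 ± 0.13 below the sum (interaction -0.58, adjusted p = 0.0214). The pht1 feature in the double group averaged -0.03, as given above. The call was lost without replicate 1 or 3 of pht1∆, 1 or 3 of prp16DAmP, or 1 or 2 of pht1∆ prp16DAmP (-0.67 to -0.50, adjusted p up to 0.0691). With replicate number as a block 2 members passed, 1 higher and 1 lower, and likewise without prp16DAmP replicate 2.

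At 37 °C few features of any kind were called. In swr1∆, cwf12, the relative of budding yeast Isy1, rose (0.22, 0.46 and 0.55, mean 0.41 ± 0.08, adjusted p = 0.0123) and cwf11, the relative of the human intron-binding protein Aquarius, fell (-0.48, -0.57 and -0.75, mean -0.60 ± 0.10, adjusted p = 0.00202). This was 4.0% of the members against 1.05% of all genes. The call of cwf11 was lost without replicate 3 (-0.53, adjusted p = 0.0583) and that of cwf12 without replicate 2 or replicate 3 (means from 0.34, adjusted p up to 0.352). The direction of cwf11 was opposite in 3 other groups, where it rose: 0.37 in pht1∆ usp107DAmP, 0.36 in pht1∆ prp16DAmP and 0.29 in usp107DAmP. Those calls were lost without replicate 1 or 2 in pht1∆ prp16DAmP and without any 1 array in usp107DAmP.

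No member transcript was called by limma in prp16DAmP at 37 °C (0.118% of all genes were) or in swr1∆ prp16DAmP at 37 °C (0.355%), with 3 and 12 at an unadjusted p under 0.05. The interaction at 37 °C called none either, against 0.335% of all genes, with 3 at an unadjusted p under 0.05. Without replicate 3 of swr1∆ prp16DAmP there was 1 call in that group and 2 for the interaction. Member means in prp16DAmP ranged from -0.28 to 0.26 and in swr1∆ prp16DAmP from -0.31 to 0.28. The mean SD over all features was 0.138 to 0.198 in the 37 °C groups and 0.259 to 0.383 elsewhere, and all groups share 1 estimate of the spread per feature. With the arrays scaled to equal spread 9 members were called in prp16DAmP, and 8 were called in the fit of its own arrays.

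Turning to splicing of the members' own introns, 53 of 74 were called in at least 1 group, 71.6% against 68.1% of all introns. Of the 80 called values 66 were higher and 14 lower, with sizes from 0.32 to 1.15. All introns leaned the same way in each of the 7 groups at 30 °C and 16 °C. Their higher and lower calls ran from 220 and 84 in swr1∆ at 30 °C to 1211 and 264 in pht1∆ usp107DAmP. The 21 introns called in no group included all 3 of sme1 and all 4 of lsm3. Over all introns the median index was itself above 0, between 0.06 and 0.136 in the 7 groups at 30 °C and 16 °C, so the balance of higher and lower calls depends on the centring. It also depends on the reference. Where the junction is the reference, the mean of all junction features of the gene, not the junction across that intron, replaces the exon feature. Introns of smb1, cwf21, cwf26, cwf29 and prp10, which have no junction feature, then drop out. The higher and lower calls of members numbered 5 and 3 in pht1∆ at 30 °C, 5 and 3 in usp107DAmP, 22 and 2 in pht1∆ usp107DAmP and 12 and 5 in pht1∆ at 16 °C. Shares of all introns called with this reference are not given here. They numbered 9 and 0 in prp16DAmP and 5 and 0 in pht1∆ prp16DAmP at 16 °C, and 0 and 4 in swr1∆ at 30 °C.

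**Figure D3:**
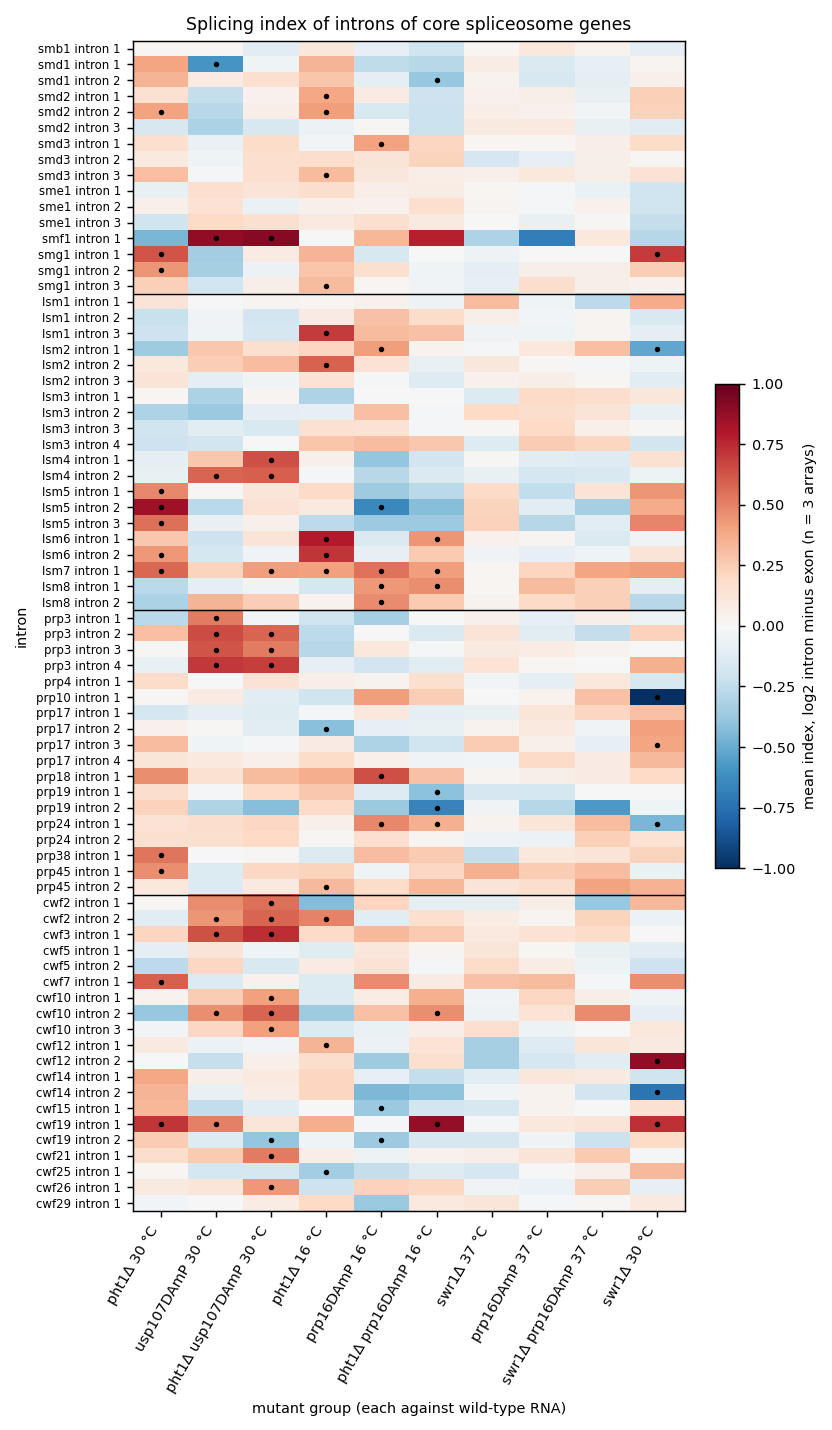
Mean splicing index (log2, intron minus exon feature) of the 74 member introns (rows, by family) in the 10 groups (columns), n = 3 arrays; black dots mark called values. No dot stands in the 3 groups at 37 °C, and lsm7 intron 1 carries a dot in 5 of the other 7 groups.

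In pht1∆ at 30 °C, 12 member introns had a higher index and none a lower one, 16.2% of the members against 17.7% of all 4817 introns. Without 1 array there were 8 or 9, and with each kind of feature centred 7 were higher and 2 lower. Scaling the arrays, or fitting this group's arrays alone, left 4. In all 12 the exon feature of the gene lay below 0, and in 9 of them the change was larger in the exon than in the intron feature. Since the index subtracts the exon feature, choosing higher indices favours low exon values. The same makeup over all introns with a higher index was not counted, here or in the other groups. Their median intron value was 0.119 and their median exon value -0.441.

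The Lsm genes held 5 of the higher introns in pht1∆ at 30 °C, of 20 measured, against 677 higher among all 4817 introns. The 5 were 3 of lsm5 and 1 each of lsm6 and lsm7. For lsm5 intron 2 the index read 0.63, 0.80 and 1.11, a mean of 0.85 ± 0.18 (adjusted p = 0.00177). The 3 introns of lsm5 share 1 exon feature at -0.75, and their intron features averaged -0.27, 0.09 and -0.21. For cwf19 intron 1 the index read 0.29, 1.20 and 0.65, a mean of 0.72 ± 0.17 (adjusted p = 0.00396). Here the intron feature moved, at 0.43, 0.84 and 0.65, while the exon feature stood at -0.08. That call was lost without replicate 2, at 0.47 (adjusted p = 0.111), whereas the call of lsm5 intron 2 held with any 1 array left out. With junction features in place of the exon feature, lsm5 intron 2 was not called.

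In pht1∆ at 16 °C, 12 member introns were higher and 2 lower, 18.9% of the members against 25.7% of all introns. Centring each kind of feature left 6 higher and 6 lower, and scaling the arrays to equal spread 8 higher and none lower. There were 6 calls without replicate 1, 7 without replicate 3 and 12 without replicate 2. In 8 of the 12 the change was larger in the intron than in the exon feature. Their median intron value was 0.369 and their median exon value -0.039. Of the 11 with a junction feature, 3 had the intron above 0 and the junction below 0, 27.3% against 66.2% of all introns with a higher index there.

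The 3 introns shown above led in pht1∆ at 16 °C. For lsm6 intron 1 the index read 1.28, 0.44 and 0.67, a mean of 0.80 ± 0.14 (adjusted p = 0.000118), with the intron feature at 1.54, 0.75 and 0.87 and the exon feature at 0.26. For lsm6 intron 2 it read 0.83, 0.95 and 0.37, a mean of 0.72 ± 0.13 (adjusted p = 0.000229), with the intron feature at 1.09, 1.26 and 0.57. For lsm1 intron 3, in the gene of the cytoplasmic ring, it read 0.96, 0.49 and 0.64, a mean of 0.70 ± 0.12 (adjusted p = 0.000112). All 3 calls held with any 1 array left out. In lsm6 the junction feature across intron 2 was also high (mean 0.80, adjusted p = 0.000922) and that across intron 1 was near 0 (0.16), so no lower junction signal accompanied the higher intron signal.

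**Figure D4:**
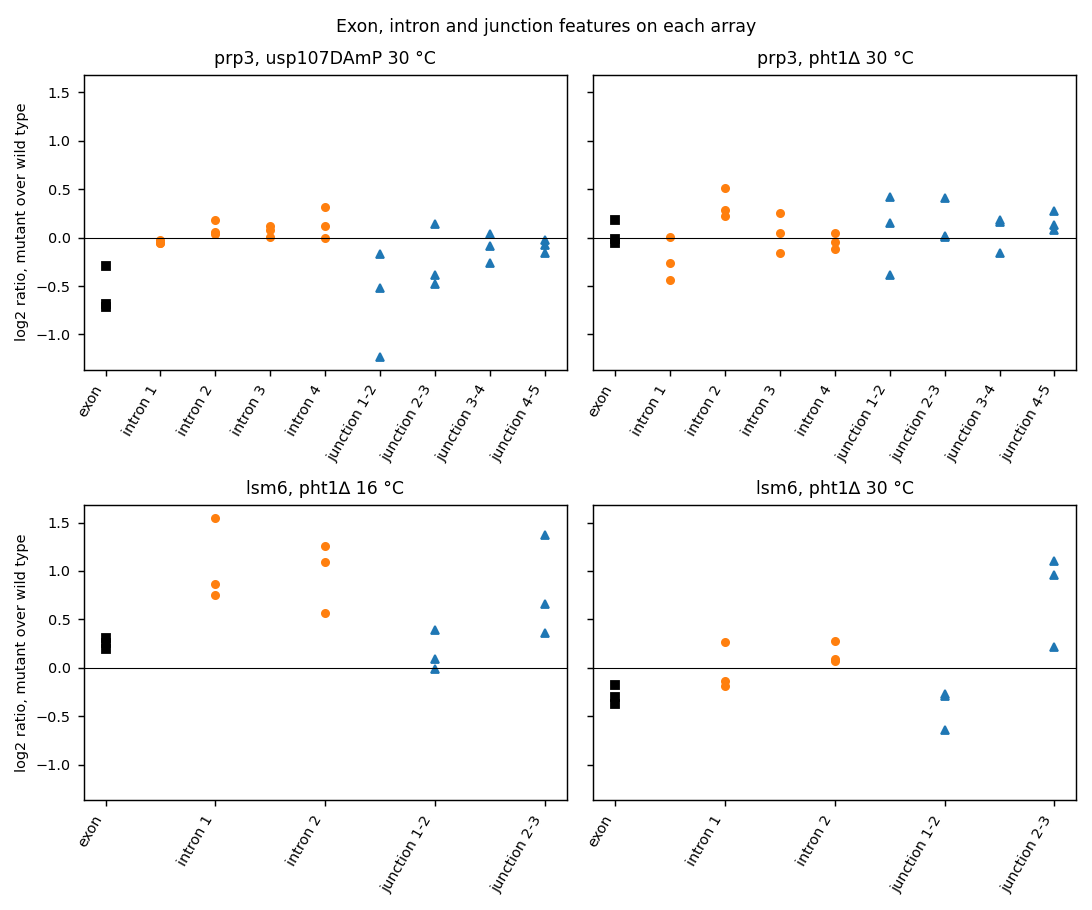
Log2 ratio of the exon (squares), intron (circles) and junction (triangles) features on each array for prp3 in usp107DAmP and pht1∆ at 30 °C and for lsm6 in pht1∆ at 16 °C and 30 °C. The exon squares of prp3 lie at -0.29, -0.68 and -0.72 in usp107DAmP with its introns near 0, and the circles of lsm6 reach 1.54 at 16 °C.

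Also called in pht1∆ at 16 °C were lsm2 intron 2 (0.59), cwf2 intron 2 (0.50), introns 2 and 1 of smd2 (0.42 and 0.39), lsm7 intron 1 (0.41), cwf12 intron 1 (0.34), prp45 intron 2 (0.33), smd3 intron 3 (0.32) and smg1 intron 3 (0.32). For both smd2 introns the intron feature stood near 0 (-0.09 and -0.05) against an exon feature of -0.47, and the junction across intron 2 averaged -0.96 (adjusted p = 9.79e-05). The lower ones were prp17 intron 2 (-0.42), whose arrays read -0.99, -0.08 and -0.18, and cwf25 intron 1 (-0.35). Without replicate 1 the mean of prp17 intron 2 was -0.13 (adjusted p = 0.63) and that of cwf2 intron 2 was 0.34 (adjusted p = 0.222). The call of cwf25 intron 1 was lost without replicate 1 or replicate 3.

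Between 16 °C and 30 °C, 5 member introns differed in pht1∆, 6.76% of the members against 9.94% of all introns. The index of lsm1 intron 3 was higher at 16 °C by 0.91 ± 0.17 (adjusted p = 0.00147), a call that held with any 1 array left out and under each alternative tried. That of lsm2 intron 1 was higher by 0.57 ± 0.18 (adjusted p = 0.0428). Lower at 16 °C were lsm5 intron 3 (-0.81 ± 0.23, adjusted p = 0.0256), prp38 intron 1 (-0.67 ± 0.16, adjusted p = 0.01) and prp3 intron 2 (-0.57 ± 0.19, adjusted p = 0.0485). With junction features as the reference none of these 3 was called, and 7 member introns were higher at 16 °C and 0 lower. With replicate number as a block the call of prp3 intron 2 was lost (adjusted p = 0.0541) while the count stayed at 5. The call of prp38 intron 1 was lost without replicate 2 of the 30 °C group (-0.50, adjusted p = 0.0696). Those of lsm2 intron 1, lsm5 intron 3 and prp3 intron 2 were each lost without replicate 1 of the 16 °C group, and without 2 or more other arrays. Counts were 2 without replicate 1 of the 16 °C group and 3 without its replicate 3 or without replicate 1 of the 30 °C group.

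In usp107DAmP, 10 member introns were higher and 1 lower, 14.9% of the members against 14.2% of all introns. Centred by kind of feature the split was 7 higher and 3 lower. The count fell to 2 without replicate 2 and to 7 without replicate 3, and the fit of this group's own arrays called none. The exon feature lay below 0 in 9 of the 10, which choosing higher indices favours, with a median of -0.48, against a median intron value of 0.139.

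All 4 introns of prp3 were among them, and they share the fall of its exon feature. The index read 0.24, 0.62 and 0.69 for intron 1, 0.34, 0.86 and 0.75 for intron 2, 0.29, 0.76 and 0.83 for intron 3, and 0.29, 0.80 and 1.03 for intron 4. Their means were 0.52 ± 0.16, 0.65 ± 0.13, 0.63 ± 0.12 and 0.71 ± 0.14 (adjusted p = 0.0263, 0.00203, 0.0016 and 0.00237). The intron features themselves averaged -0.04, 0.09, 0.07 and 0.15. The junction across intron 1 fell, at -0.52, -1.23 and -0.17 (mean -0.64, adjusted p = 0.00399), while the other 3 junctions averaged -0.24, -0.10 and -0.09 and were not called. The call of intron 4 held with any 1 array left out, and that of intron 2 was lost without replicate 2 (0.55, adjusted p = 0.0525) and with the junction as the reference. In pht1∆ at 30 °C, where the exon feature of prp3 was not called, no intron of prp3 was called.

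Similarly, cwf3 intron 1 read 0.39, 0.94 and 0.58 in usp107DAmP (mean 0.64 ± 0.14, adjusted p = 0.00342) over an intron feature near 0 (0.13), and its call was lost without replicate 2 (0.49, adjusted p = 0.0903) and with the junction as the reference. A different makeup was seen for smf1 intron 1, where the index read 0.16, 0.77 and 1.73 (mean 0.89 ± 0.28, adjusted p = 0.0298). Its intron feature averaged 0.71, and replicate 3 was far above the others. Without replicate 3 the mean was 0.47, and the call was also lost without replicate 2 (adjusted p up to 0.345). The single lower index was smd1 intron 1 (-0.59), whose call was lost without replicate 2 or replicate 3. That of cwf10 intron 2 (0.47) and of cwf2 intron 2 (0.44) was lost without any 1 array.

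Higher indices numbered 15 and lower ones 1 in pht1∆ usp107DAmP, 21.6% of the members against 30.6% of all introns. The cwf genes held 8 of the 15, of 20 introns measured, against 1211 higher among all 4817 introns. The 8 were 3 of cwf10, both of cwf2, and 1 each of cwf3, cwf21 and cwf26, and introns of 1 gene share its exon feature. All 15 had an exon feature below 0 (median -0.414, against 0.14 for the introns), which choosing higher indices favours. Leaving out replicate 2 gave 6 calls and leaving out either other array 15, scaling the arrays gave 7, and the fit of this group's 3 arrays alone gave none. For cwf3 intron 1 the arrays read 0.38, 1.18 and 0.65, a mean of 0.73 ± 0.14 (adjusted p = 0.000219), and prp3 intron 4 read 0.27, 0.57 and 1.25, a mean of 0.70 ± 0.14 (adjusted p = 0.000622). Both calls held with any 1 array left out. That of smf1 intron 1 (0.24, 0.51 and 1.99, mean 0.91) was lost without replicate 3, at 0.37 (adjusted p = 0.347). The lower index was that of cwf19 intron 2 (-0.39), which was lost without replicate 1 or 2 and stood at 0.27 with the junction as the reference.

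Junction features, which report joined exons, were also tested on their own. In usp107DAmP 2 of 67 member junctions were higher and 4 lower, 8.96% against 12.3% of all 4651 junctions. In pht1∆ usp107DAmP 4 were higher and 23 lower, 40.3% against 38.6% of all junctions, and the junctions of all genes split the same way, 429 higher and 1367 lower. The lowest were the junctions across prp19 intron 2 (-0.78, -1.26 and -1.29, mean -1.11, adjusted p = 1.68e-05) and smd2 intron 2 (-1.23, -1.83 and -0.19, mean -1.08, adjusted p = 1.87e-05). Neither intron had a called index in that group (-0.43 and 0.07). Of the 15 introns with a higher index there, 3 had no junction feature. The other 12 all had the intron feature above 0 and the junction below 0, against 68.0% of the 1156 introns of all genes with a higher index and a junction. At 16 °C 3 member junctions were higher and 12 lower in prp16DAmP, 22.4% against 13.8% of all junctions. There were 3 higher and 9 lower in pht1∆ (17.9% against 17.2%), and 2 higher and 10 lower in pht1∆ prp16DAmP (17.9% against 15.4%). At 30 °C 6 were higher and 7 lower in pht1∆ (19.4% against 22.4%), and 2 higher and 0 lower in swr1∆ (2.99% against 3.57%). By limma none was called at 37 °C, against 0.0645% of all junctions in swr1∆, 0.0% in prp16DAmP and 0.194% in swr1∆ prp16DAmP, and 4, 3 and 11 members had an unadjusted p under 0.05.

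Interaction terms called no member intron by limma in any of the 3 double groups. The background was 0.291% of all introns for pht1∆ usp107DAmP, 2.28% for pht1∆ prp16DAmP and 0.0% for swr1∆ prp16DAmP, and 4, 11 and 4 members had an unadjusted p under 0.05. Without pht1∆ replicate 2 at 16 °C there was 1 call for pht1∆ prp16DAmP. Between swr1∆ and pht1∆ at 30 °C none was called either, against 0.27% of all introns, with 8 at an unadjusted p under 0.05. There was 1 call without swr1∆ replicate 1 or 2, and there were 2 without its replicate 3.

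In prp16DAmP at 16 °C, 7 member introns were higher and 3 lower, 13.5% of the members against 17.6% of all introns. Centring turned the balance to 3 higher and 8 lower, scaling gave 5 higher and 1 lower, and the junction as the reference gave 9 higher and 0 lower. Without replicate 1 none was called, without replicate 2 there were 7 and without replicate 3 there were 5. The Lsm genes held 4 of the 7, of 20 measured, in lsm2, lsm7 and lsm8, against 682 higher among all 4817 introns. For lsm7 intron 1 the index read 0.60, 0.25 and 0.77, a mean of 0.54 ± 0.14 (adjusted p = 0.00865), with the intron feature at 0.44 and the junction at -0.61 (adjusted p = 0.0025). Its call was lost without replicate 1 or replicate 3 (adjusted p up to 0.1). For prp18 intron 1 the arrays read 1.80, -0.07 and 0.22, so 1 array carried the mean of 0.65, which was 0.07 without replicate 1 (adjusted p = 0.847). The 3 lower ones, lsm5 intron 2 (-0.64), cwf15 intron 1 (-0.37) and cwf19 intron 2 (-0.36), all lay in genes whose exon feature was above 0, which choosing lower indices favours. The call of lsm5 intron 2 was lost without replicate 1 or replicate 3, and those of cwf15 intron 1 and cwf19 intron 2 without any 1 array. With junction features as the reference, lsm5 intron 2 stood at 0.04 and cwf19 intron 2 at 0.06.

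With 6 introns higher and 3 lower, pht1∆ prp16DAmP at 16 °C had 12.2% of the members called against 17.6% of all introns. Centring left 1 higher and 3 lower, and leaving out replicate 1 gave 1 call, leaving out either other array 2. The index of cwf19 intron 1 read 0.71, 1.35 and 0.58, a mean of 0.88 ± 0.17 (adjusted p = 0.000808), with the intron feature at 1.02, 1.47 and 0.97, above 0 on each array. That call held with any 1 array left out. In prp19, whose transcript rose here, introns 2 and 1 had lower indices (-0.67 and -0.41) with intron features at -0.30 and -0.04. The call of intron 2 was lost without replicate 1 or replicate 3 (-0.76 to -0.57, adjusted p up to 0.0729), and that of intron 1 without any 1 array. The lower smd1 intron 2 (-0.38) was lost without replicate 1 or 2. With junction features as the reference these 3 indices turned to 0.14, 0.39 and 0.25.

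Across groups, lsm7 intron 1 was called higher in 5 and never lower. Its means were 0.58 ± 0.14 in pht1∆ at 30 °C, 0.42 in pht1∆ usp107DAmP and, at 16 °C, 0.54 in prp16DAmP, 0.42 in pht1∆ prp16DAmP and 0.41 in pht1∆. The first of these held with any 1 array left out, with adjusted p up to 0.0478, but was lost with the junction as the reference. The call in pht1∆ usp107DAmP was lost without replicate 1 or 2, that in pht1∆ at 16 °C without replicate 1 or 3, and that in pht1∆ prp16DAmP without any 1 array. The order of the 5 means is not resolved, each carrying a standard error of 0.14. Higher indices of cwf19 intron 1 were called in 4 groups: 0.88 in pht1∆ prp16DAmP at 16 °C, 0.73 in swr1∆ at 30 °C, 0.72 in pht1∆ at 30 °C and 0.50 in usp107DAmP. In each of the 4 its intron feature was above 0 on all 3 arrays, and called. Same-numbered arrays of pht1∆ and swr1∆ at 30 °C deviated together in transcript level (correlations 0.53 to 0.79), so those calls may not be independent. The call in usp107DAmP was lost without any 1 array.

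**Figure D5:**
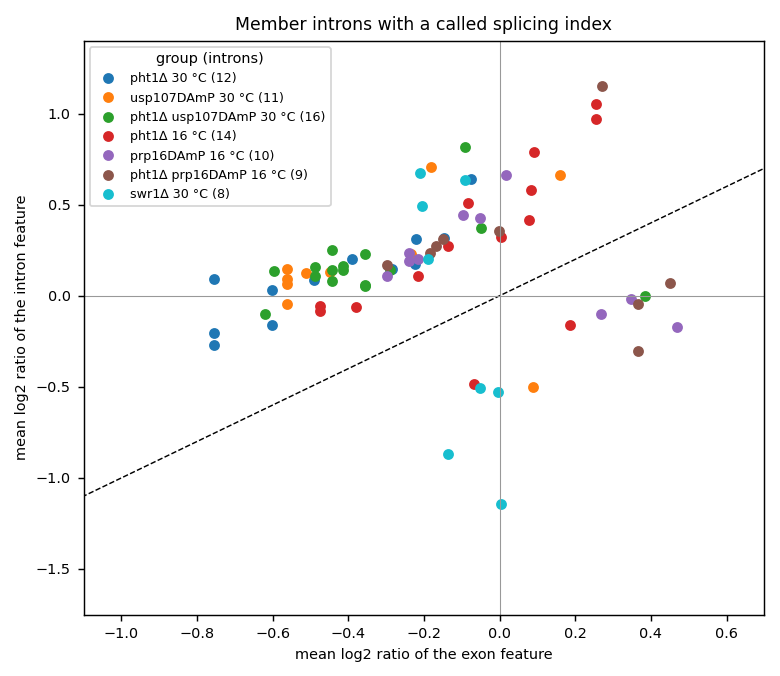
Mean log2 ratio of the intron feature (vertical axis) against that of the exon feature (horizontal axis) for member introns with a called index, coloured by group with the number of introns in brackets; the dashed line marks equal values, an index of 0. Points of pht1∆ at 30 °C and of both groups labelled usp107DAmP lie mostly at exon values below 0 and intron values near 0, and those of pht1∆ at 16 °C reach intron values of 1.05 and 0.97. Because points were chosen by the index, which subtracts the exon feature, exon values below 0 are favoured among higher indices.

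In swr1∆ at 30 °C, 4 member introns were higher and 4 lower, 10.8% of the members against 6.31% of all introns. Omitting replicate 1, 2 or 3 gave 2, 4 and 16 calls, and the fit of its own arrays called none. Centred, 2 were higher and 4 lower, and with the junction as the reference none was higher and 4 were lower. Several of these rested on 1 array: prp10 intron 1 read -3.66, 0.02 and 0.20, cwf14 intron 2 read -0.16, -0.09 and -1.95, and cwf12 intron 2 read 2.29, 0.49 and -0.12. Without replicate 1 the mean of prp10 intron 1 was 0.11 and that of cwf12 intron 2 was 0.18, and without replicate 3 that of cwf14 intron 2 was -0.13. The calls of smg1 intron 1 (0.70), lsm2 intron 1 (-0.52) and prp24 intron 1 (-0.45) were lost without replicate 1 or replicate 2. For cwf19 intron 1 the arrays read 0.33, 1.21 and 0.64, all above 0 (mean 0.73 ± 0.17, adjusted p = 0.0108), and the call was lost without replicate 2, at 0.49 (adjusted p = 0.241), and with the junction as the reference.

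At 37 °C no member intron was called by limma in any of the 3 groups. The background was 0.0% of all introns in swr1∆, 0.0623% in prp16DAmP and 0.208% in swr1∆ prp16DAmP, and 4, 3 and 9 members had an unadjusted p under 0.05. Mean indices ranged from -0.33 to 0.35 in swr1∆, from -0.70 to 0.32 in prp16DAmP and from -0.57 to 0.47 in swr1∆ prp16DAmP. Scaling the arrays to equal spread called 5, 10 and 4.

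Spliceosome genes with other names were counted beside the members, 34 of 40 listed genes having an exon feature and 42 introns an index. In pht1∆ at 30 °C, 1 of 34 rose and 7 fell (23.5% against 25.7% of all genes), and 9 of 42 introns were higher and 2 lower (26.2% against 17.7% of all introns). In pht1∆ usp107DAmP 4 rose and 12 fell (47.1% against 42.4%), with 15 introns higher and 1 lower (38.1% against 30.6%). The U5 gene dim1 fell in both of these groups and in pht1∆ at 16 °C (-1.08, -1.14 and -0.63, adjusted p = 2.36e-05, 1.14e-05 and 0.00582). In each of the 3 groups its 4 introns had called higher indices, between 0.45 and 1.21, over that shared exon feature. The U2 gene lea1 fell in pht1∆ at 30 °C and 16 °C and in pht1∆ prp16DAmP (-0.68, -0.51 and -0.38). The U4 snRNP gene snu13 fell in pht1∆ at 30 °C (-0.86) and rose in usp107DAmP (0.64). In usp107DAmP 3 of 34 rose and 3 fell (17.6% against 20.5%), and 2 introns were higher and 2 lower (9.52% against 14.2%). At 16 °C 2 rose and 4 fell in pht1∆ (17.6% against 20.3%), 4 rose and 5 fell in prp16DAmP (26.5% against 17.3%), and 4 rose and 6 fell in pht1∆ prp16DAmP (29.4% against 23.4%). Their introns numbered 10, 5 and 3 higher and 2, 0 and 0 lower, 28.6%, 11.9% and 7.14% against 25.7%, 17.6% and 17.6% of all introns. In swr1∆ at 30 °C none rose and 1 fell (2.94% against 5.56%), and 3 introns were higher and 2 lower (11.9% against 6.31%). At 37 °C none of the 34 transcripts or 42 introns was called in any group.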

How the data were processed

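RNA of 30 mutant samples was compared with wild-type RNA on 2-colour splicing arrays with exon, intron and junction features, 3 arrays in each of 10 groups. The authors deposited 1 table of log ratios, mutant (Cy5) over wild type (Cy3) per the labels, read here as log2; the sources used here do not state the log base, probe averaging, background correction or normalization. Values ran from -5.53 to 4.38, none was missing, and no array's median over all features was farther than 0.0254 from 0. Every array had the same dye orientation, so dye bias cannot be told apart from the mutant. The number of arrays limits the precision.

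Features were matched to RefSeq symbols (ASM294v3) by locus tag for 4806 genes and by synonym for 200, and 78 stayed unmatched. An index was computed for 4817 introns, and the 19 with no exon feature got none. limma 3.58.1 (R 4.3.3; lmFit, eBayes) was fitted on all 30 arrays with 1 mean per group, so groups share 1 spread per feature, with Benjamini-Hochberg adjustment over all features. The fit was tested on simulated data that had the same spread per feature in every group. In the real groups the mean SD ran from 0.138 to 0.383, so the simulation cannot show how unequal spread acts on the calls. Differences between groups were contrasts in the same fit.

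Replicate numbers in the labels were checked for pairing by the correlation of deviations from group means. Same-numbered arrays deviated together in swr1∆ and pht1∆ at 30 °C (0.53 to 0.79 over 3 pairs) and in usp107DAmP and pht1∆ usp107DAmP (0.60 to 0.74). Correlations were lower in prp16DAmP and pht1∆ prp16DAmP at 16 °C (0.18 to 0.39). They were also lower in swr1∆ and swr1∆ prp16DAmP at 37 °C (0.09 to 0.42). In the other pairs of groups checked they lay between -0.33 and 0.18. Any pairing is a hint from the data rather than the design.

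The members and gene lists were chosen with earlier results of these data known. Per-array values were given by rule: for up to 8 transcripts and up to 8 introns called in the most groups, and for up to 3 called members or introns with the largest positive and 3 with the largest negative difference in each comparison. Any member could be named in a count. Other per-array values (the remaining prp3 introns, uncalled prp12, cwf20 and cwf24, and junctions) were chosen after their values were seen. Of other genes, only those of the list of other spliceosome genes and the targeted genes are named. Alternatives were scaling arrays to equal spread, centring each kind of feature, fitting the compared arrays alone, leaving out each array and a replicate block. For the index they also included the mean of the gene's junction features as the reference, and repeated intron values set to missing.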

Additional observations from a re-analysis of the deposited data

Results flagged for a closer look

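In all, 9 differences between groups in transcript level or splicing index passed the test of the difference itself. Intron and junction features tested on their own are not counted among them. In pht1∆, the transcript level at 16 °C exceeded that at 30 °C by 0.54 for lsm6 and by 0.51 for prp38. Under the same contrast the splicing index differed by 0.91 for lsm1 intron 3 and by 0.57 for lsm2 intron 1, both higher at 16 °C. It was lower at 16 °C for lsm5 intron 3 (-0.81), prp38 intron 1 (-0.67) and prp3 intron 2 (-0.57). None of these 3 was called with junction features as the reference. Because the index subtracts the exon feature, the transcript and index differences of prp38 share that feature. The transcript of cwf20 had an interaction of -1.03 between the pht1∆ and usp107DAmP labels, and that of cwf24 an interaction of -0.58 between the pht1∆ and prp16DAmP labels at 16 °C. In these double groups the pht1 feature was near 0 (0.02 and -0.03), as given above. With 3 arrays per group, single arrays were not tested as outliers.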

How the results depend on the processing

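Of 811 refits of the 106 named results, 514 kept direction and call, 289 kept the direction but not the call and 8 turned direction, and 182 of 278 recounts stayed within 1.5 times. The cause of the changes was not tested, apart from fewer arrays where arrays were left out. With arrays scaled to equal spread, the called transcripts numbered 9 in pht1∆ and 8 in pht1∆ usp107DAmP at 30 °C. At 37 °C they were 6 in swr1∆, 9 in prp16DAmP and 2 in swr1∆ prp16DAmP. The interactions gave 0 for pht1∆ prp16DAmP and 3 for swr1∆ prp16DAmP. Called introns then numbered 4 in pht1∆, 7 in pht1∆ usp107DAmP and 5 in swr1∆ at 30 °C, 8 in pht1∆ and 6 in prp16DAmP at 16 °C, 5, 10 and 4 in swr1∆, prp16DAmP and swr1∆ prp16DAmP at 37 °C, 2 for 16 °C minus 30 °C and 3 for the swr1∆ prp16DAmP interaction. With only the compared arrays in the fit, transcripts numbered 3 in pht1∆, 0 in usp107DAmP, 0 in pht1∆ usp107DAmP and 0 in swr1∆ at 30 °C, 1 in swr1∆ and 8 in prp16DAmP at 37 °C, and 0 for the pht1∆ usp107DAmP interaction. Introns numbered 4, 0, 0 and 0 in the same 30 °C groups, 9 in pht1∆, 4 in prp16DAmP and 15 in pht1∆ prp16DAmP at 16 °C, 4 in swr1∆ and 6 in prp16DAmP at 37 °C, and 1 for 16 °C minus 30 °C. Centring each kind of feature left 4 introns in pht1∆ prp16DAmP. Junction features as the reference gave 5 introns in pht1∆ prp16DAmP, 4 in swr1∆ at 30 °C and 1 for the pht1∆ prp16DAmP interaction. That reference also turned prp19 intron 1 (0.39), prp19 intron 2 (0.14) and smd1 intron 2 (0.25) in pht1∆ prp16DAmP, cwf19 intron 2 in pht1∆ usp107DAmP (0.27) and prp16DAmP (0.064), and lsm5 intron 2 in prp16DAmP (0.038). Without both arrays with the most repeated intron values, an alternative chosen after seeing the data, 1 transcript and 2 introns were called in swr1∆ at 30 °C, 3 introns for 16 °C minus 30 °C, 1 for swr1∆ minus pht1∆ and 1 for the pht1∆ usp107DAmP interaction. Without those arrays, and without replicate 1, prp10 intron 1 in swr1∆ at 30 °C stood at 0.11, and over single arrays left out it ranged from -1.82 to 0.11. The replicate block raised the pht1∆ prp16DAmP interaction from 1 transcript to 2 and changed no other count, though for 16 °C minus 30 °C prp3 intron 2 was lost (adjusted p = 0.0541) and another intron entered.

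With 1 array left out, called transcripts ranged from 10 to 16 in pht1∆, 2 to 9 in usp107DAmP, 10 to 20 in pht1∆ usp107DAmP and 1 to 9 in swr1∆ at 30 °C. They ranged from 5 to 7 in pht1∆, 1 to 4 in prp16DAmP and 2 to 6 in pht1∆ prp16DAmP at 16 °C, and from 0 to 2, 0 to 0 and 0 to 1 in swr1∆, prp16DAmP and swr1∆ prp16DAmP at 37 °C. For 16 °C minus 30 °C they stayed at 2, for swr1∆ minus pht1∆ they ranged from 0 to 2, and for the interactions from 0 to 1 (pht1∆ usp107DAmP), 0 to 2 (pht1∆ prp16DAmP) and 0 to 2 (swr1∆ prp16DAmP). Called introns ranged from 8 to 9, 2 to 8, 6 to 15 and 2 to 16 in the same 30 °C groups, from 6 to 12, 0 to 7 and 1 to 2 in the 16 °C groups, and stayed at 0 at 37 °C. They ranged from 2 to 6 for 16 °C minus 30 °C, 0 to 2 for swr1∆ minus pht1∆ and 0 to 1 for the pht1∆ prp16DAmP interaction, and stayed at 0 for the other interactions. Of the named results, 30 were called in every such fit. Signal over background is not given in the deposited ratios.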
